A study of Mus musculus with 17 samples.

Results

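The 10 neuropeptide receptor genes described here are Npbwr1, Gpr139, Tacr1, Tacr3, Trhr, Sstr1, Sstr2, Sstr3, Sstr4 and Sstr5, out of 56953 genes whose RNA was counted in the prefrontal cortex of 17 mice. Npbwr1, Gpr139, Tacr1, Trhr and Sstr5 were chosen on measured values, because their levels were low in PS19 mice, and Tacr3 and Sstr1 to Sstr4 were added as members of the same receptor families. Differences of the 5 chosen genes are therefore given as a description with no test, since each comparison holds libraries on which the choice rested. All 10 genes passed the filter on low counts, which a gene can also pass through the genotype where it is high.

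The mice were 5 WT, 6 PS19 (labelled hTau) and 6 CgA-KO/PS19 (labelled CgA-KO/hTau), all on the B6C3F1/J background, 8 months old and fed regular chow. In PS19 mice the Prnp promoter drives human Tau with the P301S mutation from a transgene kept heterozygous in the breeding, and CgA-KO/PS19 mice carry the same transgene and lack Chga, the gene of chromogranin A (CgA), in the whole body. The methods describe mice of both sexes, with no sex given beside a library. None of the 17 libraries came from CgA-KO mice without the transgene. Nothing beside the labels says how the mice of a genotype were related, so that the spread between libraries is the only error available.

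Neuropeptides are short signalling peptides that neurons cut from larger precursors and release from dense-core vesicles, and most of them act on G protein-coupled receptors. Npbwr1 encodes a receptor of neuropeptides B and W, Gpr139 an orphan receptor that responds to aromatic amino acids and is rich in the striatum and habenula, Tacr1 and Tacr3 the receptors preferred by substance P and neurokinin B, and Trhr the receptor of thyrotropin-releasing hormone. Sstr1 to Sstr5 encode the somatostatin receptors, which couple to Gi proteins and dampen the firing and secretion of the cells that carry them. In the cortex somatostatin is made by a class of inhibitory interneurons.

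Libraries held 8838334 to 227651681 counts, with WT replicate 4 the shallowest, and about 3 counts stood for 1 sequenced fragment. Chga had 0 counts in all 6 CgA-KO/PS19 libraries and 152 to 180 CPM (library-scaled counts, TMM-normalised) in the WT and PS19 libraries. PS19 replicates 4 to 6 were nearly identical to each other, with a robust SD of the log2 ratio of 0.0523 to 0.0607 between them, as were CgA-KO/PS19 replicates 1 and 3 (0.0980), against 0.146 to 0.592 for the other pairs of a genotype. The Y-linked gene Ddx3y reached 49.8 to 76.8 CPM in replicates 1, 2 and 3 of the genotypes and at most 0.0582 CPM in all later ones. The paper describes males and females in each genotype. By this gene replicates 1 to 3 were male and later ones female, so that the fits over either set below also hold a single sex. The libraries also differed in markers of neighbouring tissue. The summed level of 16 striatum markers was 1247 to 4075 CPM in WT with replicates 3 and 5 highest, 305 to 419 CPM in PS19, and in CgA-KO/PS19 it was 2314 and 2340 CPM in replicates 1 and 3 but 286 to 514 CPM in replicates 2, 4, 5 and 6. None of the 16 was at 0 in every library of a genotype. Of these markers 15 were called higher in WT than in PS19 and 11 in CgA-KO/PS19, beside 3.95% and 5.5% of all genes. All 6 markers of basal forebrain cholinergic neurons were called higher in WT than in PS19, and 2 of them in CgA-KO/PS19. Of 8 cortical excitatory markers 1 was called lower in WT, beside 1.95% of all genes, and none was called in CgA-KO/PS19 against PS19. WT replicate 5 had 1085 CPM of 4 choroid plexus markers, against 12.9 to 17.6 CPM in the other WT libraries. PS19 was lowest throughout, at 3.45 to 4.65 CPM, and CgA-KO/PS19 had 6.62 to 12.7 CPM. Of these 4 markers 3 were called higher in WT than in PS19 and 1 in CgA-KO/PS19, beside 3.95% and 5.5% of all genes. Their part in the receptor levels was not tested. Reading the levels below, fewer cells of a type and less RNA per cell cannot be told apart in bulk tissue.

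Ordered by mean level per kilobase of exon, the somatostatin receptor genes other than Sstr5 stood at the top in every genotype. In WT the order was Sstr2 at 10.5, Sstr3 at 6.79, Sstr1 at 6.66, Sstr4 at 6.09, Trhr at 3.81, Tacr1 at 2.37, Gpr139 at 2.09, Tacr3 at 1.37, Npbwr1 at 0.548 and Sstr5 at 0.281 CPM per kilobase. The ranges of neighbours in this order overlapped except between Npbwr1 (0.497 to 0.587) and Sstr5 (0.201 to 0.484). In PS19 the order was Sstr1, Sstr2, Sstr3, Sstr4, Trhr, Tacr3, Tacr1, Gpr139, Npbwr1 and Sstr5, and a wide gap separated Sstr4, at 6.22 CPM per kilobase, from Trhr, at 0.520 CPM per kilobase. The chosen genes were picked as low in PS19, so that their places below that gap follow from the choice. Besides that gap, neighbours that did not overlap in PS19 were Trhr and Tacr3, and Npbwr1 and Sstr5. In CgA-KO/PS19 Sstr2 was again first at 11.2 CPM per kilobase, Sstr1 was in the fourth place at 4.43 CPM per kilobase, and the non-overlapping neighbours were Sstr1 and Trhr, and Npbwr1 and Sstr5.

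**Figure D1:**
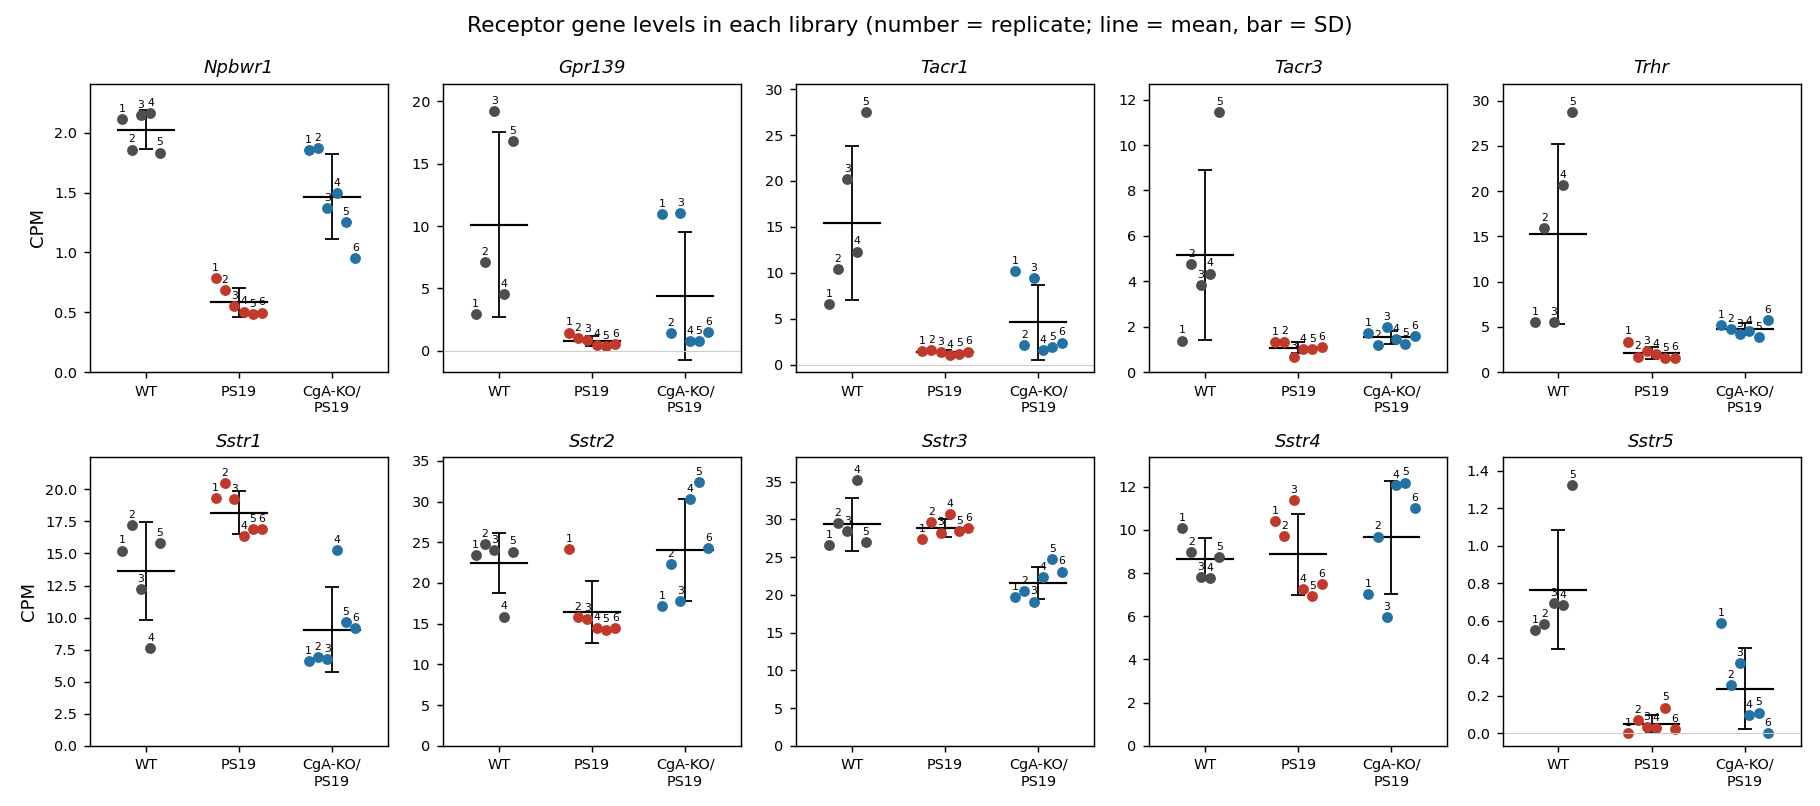
Level of the 10 receptor genes in each library, in CPM on linear axes, for 5 WT, 6 PS19 and 6 CgA-KO/PS19 mice. Points are libraries with their replicate number, lines are means and bars are SD. Npbwr1 and Trhr lie higher in all CgA-KO/PS19 libraries than in any PS19 library, while Gpr139 and Tacr1 are high in CgA-KO/PS19 replicates 1 and 3.

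Npbwr1 (ENSMUSG00000033774), on chromosome 1 from 5913707 to 5917398 of GRCm38, was the most even of the chosen genes among WT libraries. Its level in WT was 2.11, 1.86, 2.15, 2.17 and 1.83 CPM in replicates 1 to 5. In PS19 it ran from 0.483 to 0.783 CPM with a median of 0.529 CPM, and in CgA-KO/PS19 from 0.953 to 1.87 CPM with a median of 1.43 CPM. The PS19 libraries were the lowest 6 of the 17, whereas WT and CgA-KO/PS19 overlapped. The log2 fold change from PS19 was 1.79 in WT (SE 0.20) and 1.34 in CgA-KO/PS19 (SE 0.19), and that of CgA-KO/PS19 from WT was -0.46 (SE 0.20). Depth behind these values was low, with 19 counts, or about 6.33 fragments, in WT replicate 4. Unlike the striatum markers, Npbwr1 was 1.87 CPM in CgA-KO/PS19 replicate 2, close to the 1.85 and 1.37 CPM in replicates 1 and 3. With the striatum marker score of each library as a covariate, its log2 fold change from PS19 was 1.54 in WT and 1.22 in CgA-KO/PS19. That score ran from -1.41 to -1.24 in PS19 and from 0.702 to 2.63 in WT. Because these ranges did not overlap, the fit for WT against PS19, here and for the genes below, cannot separate marker level from genotype. Of 6 claustrum markers 4 were called higher in WT and 5 in CgA-KO/PS19 than in PS19, beside 3.95% and 5.5% of all genes. They summed to 241 to 379 CPM in WT, 93.0 to 227 CPM in PS19 and 313 to 460 CPM in CgA-KO/PS19. Their part in the level of Npbwr1 was not tested. Both precursor genes of its ligands were near 0. Npb, the precursor of neuropeptide B, was at 0 counts in 4 of 5 WT, 2 of 6 PS19 and 4 of 6 CgA-KO/PS19 libraries and reached 34 counts, while Npw, the precursor of neuropeptide W, reached 14 counts. Neither passed the filter on low counts.

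Gpr139 (ENSMUSG00000066197), on chromosome 7 from 119140747 to 119184603, varied far more between mice. It was 2.95, 7.09, 19.2, 4.56 and 16.8 CPM in WT replicates 1 to 5. In PS19 the lowest level was 0.399, the median 0.717 and the highest 1.48 CPM. CgA-KO/PS19 fell apart into replicates 1 and 3, at 10.9 and 11.1 CPM, and the other 4 libraries, at 0.774 to 1.5 CPM, which overlapped PS19. On average Gpr139 had a log2 fold change from PS19 of 3.69 in WT (SE 0.75) and 2.48 in CgA-KO/PS19 (SE 0.71), and that of CgA-KO/PS19 from WT was -1.21 (SE 0.69). Without CgA-KO/PS19 replicates 1 and 3, a choice made after seeing the data, the value for CgA-KO/PS19 against PS19 was 0.47. The libraries with high Gpr139 (WT replicates 3 and 5, CgA-KO/PS19 replicates 1 and 3) were those with the highest striatum marker sums, and with the striatum marker score as a covariate the log2 fold change from PS19 was 0.20 in WT and 0.21 in CgA-KO/PS19.

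**Figure D2:**
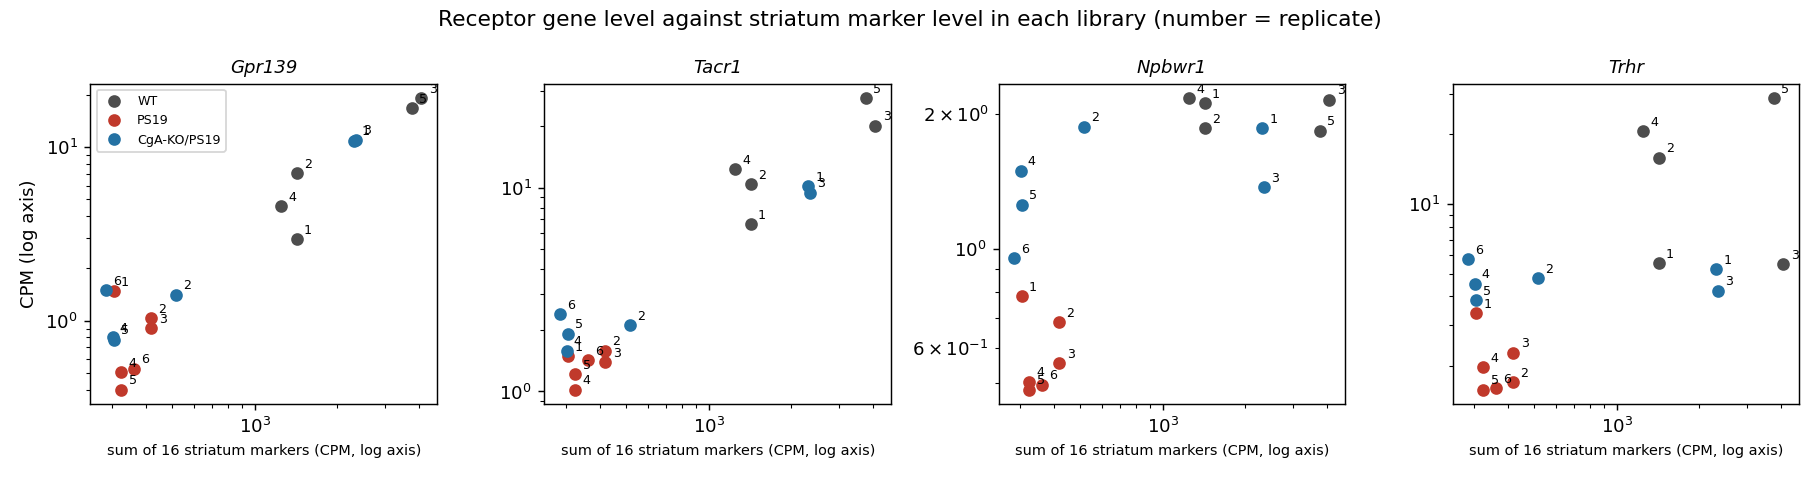
Level of Gpr139, Tacr1, Npbwr1 and Trhr in each library, in CPM, against the summed level of 16 striatum markers in the same library, in CPM, both on log axes. Points are libraries with their replicate number. Gpr139 and Tacr1 are highest where the marker sum is highest, whereas Npbwr1 in CgA-KO/PS19 is at 0.953 to 1.87 CPM over marker sums of 286 to 2340 CPM.

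Tacr1 (ENSMUSG00000030043), on chromosome 6 from 82402334 to 82560104, encodes the receptor on which substance P acts most strongly. Its level was 6.62, 10.4, 20.2, 12.3 and 27.5 CPM in WT replicates 1 to 5 and 1.02 to 1.59 CPM in PS19, with a median of 1.40 CPM. In CgA-KO/PS19 replicates 1 and 3 it was 10.2 and 9.46 CPM, and in the other 4 libraries 1.58 to 2.40 CPM. No WT library overlapped PS19, and of the CgA-KO/PS19 libraries replicate 4 lay within the PS19 range. The log2 fold change from PS19 was 3.51 in WT (SE 0.51) and 1.78 in CgA-KO/PS19 (SE 0.47), and that of CgA-KO/PS19 from WT was -1.74 (SE 0.48). Leaving out CgA-KO/PS19 replicates 1 and 3 brought the value for CgA-KO/PS19 against PS19 to 0.55, and the striatum marker score as a covariate brought it to 0.43 and that for WT against PS19 to 1.29.

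Tac1, the precursor gene of substance P and neurokinin A, had the same high libraries. It was 24.7, 36.1, 61.9, 27.3 and 59.8 CPM in WT replicates 1 to 5, 6.90 to 11.5 CPM in PS19 with a median of 9.83 CPM, and in CgA-KO/PS19 50.2 and 55.4 CPM in replicates 1 and 3 against 6.76 to 14.4 CPM in the others. WT was called higher than PS19 (log2 fold change 2.11, SE 0.50, adjusted p = 0.0181, edgeR). Neither CgA-KO/PS19 against PS19 (1.29, SE 0.48, adjusted p = 0.0921) nor CgA-KO/PS19 against WT (-0.82, SE 0.49, adjusted p = 0.360) was called. Without WT replicate 5 the call of WT against PS19 was lost (adjusted p = 0.0592), as it was over replicates 1 to 3 (2.17, adjusted p = 0.0855). It was also lost with near-identical libraries averaged (2.16, adjusted p = 0.0671). With the striatum marker score as a covariate the sign of that difference turned (-0.39, adjusted p = 0.191). Tac1 marks neurons of the direct pathway of the striatum besides its cortical cells. Without CgA-KO/PS19 replicates 1 and 3, Tac1 in CgA-KO/PS19 differed from PS19 by -0.09 and from WT by -2.19 (adjusted p = 8.84e-04).

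The promoters of Tacr1 and Tac1 are shown because both genes were high in the same libraries. The 250 bases before each start of transcription, from RefSeq on GRCm38.p6, are printed 5′ to 3′ on the strand of the gene, Tacr1 from chr6:82402225-82402474 and Tac1 from chr6:7554811-7555060, both on the plus strand, with capitals marking the core of the cAMP response element (TGACG) and the GC box (GGGCGG) on both strands.
Tacr1 upstream: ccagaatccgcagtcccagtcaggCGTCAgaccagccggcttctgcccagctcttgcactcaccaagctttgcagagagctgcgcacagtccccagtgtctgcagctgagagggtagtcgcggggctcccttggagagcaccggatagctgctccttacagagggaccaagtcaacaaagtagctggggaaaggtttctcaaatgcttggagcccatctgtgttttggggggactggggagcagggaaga
Tac1 upstream: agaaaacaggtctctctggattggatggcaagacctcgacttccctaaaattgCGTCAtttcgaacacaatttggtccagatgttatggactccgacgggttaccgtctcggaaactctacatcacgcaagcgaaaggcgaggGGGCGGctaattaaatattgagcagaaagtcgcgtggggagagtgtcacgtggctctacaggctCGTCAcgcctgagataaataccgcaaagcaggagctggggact
Tacr1 held the core once, starting 226 bases before the RefSeq start, and Tac1 held it 197 and 43 bases before, besides 1 GC box. The GENCODE starts of Tacr1 (82402334) and Tac1 (7554879) lie inside the printed stretches, so that some of these bases are within the gene by that annotation. In windows of 300 bases, which run on to 50 bases after the start, 20.8% of 32851 RefSeq promoters held the core and 35.7% the GC box, so that these letters are common. GC content of the window was 57.7% for Tacr1 and 54.0% for Tac1, against a median of 52.7% over all promoters. RefSeq promoters were matched for 5 of the 10 receptor genes and 6 of the 8 precursor genes. Npbwr1, Gpr139, Trhr, Sstr1, Sstr5, Npb and Npw had none in that table.

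Tacr3 (ENSMUSG00000028172), the receptor gene of neurokinin B, was high in WT only. It lies on chromosome 3 from 134829007 to 134934579, which is also the chromosome of the Tau transgene, and the part of that position in its level was not tested. Its level was 1.39, 4.75, 3.83, 4.33 and 11.5 CPM in WT replicates 1 to 5, 0.684 to 1.34 CPM in PS19 with a median of 1.04 CPM, and 1.18 to 1.98 CPM in CgA-KO/PS19 with a median of 1.52 CPM. WT replicate 1 lay just above the PS19 range and inside that of CgA-KO/PS19, and WT replicate 5 stood far above the rest. Tacr3 was called higher in WT than in PS19, by a log2 fold change of 2.28 (SE 0.36, adjusted p = 0.00117, edgeR), in a comparison where 3.95% of 23062 genes were called higher and 1.95% lower in WT. It was called lower in CgA-KO/PS19 than in WT (-1.76, SE 0.35, adjusted p = 0.00781), where 2.89% of genes were called lower and 3.56% higher. Between CgA-KO/PS19 and PS19 the difference was 0.52 (SE 0.34, adjusted p = 0.329). Over replicates 1 to 3 the value for WT against PS19 was 1.60 (adjusted p = 0.136) and over the later replicates 2.96 (adjusted p = 0.00599). The later set held 2 WT libraries and the near-identical PS19 replicates 4 to 6, so that its p-value rests on little independent spread. With near-identical libraries averaged the value was 2.25 (adjusted p = 0.0223), and with the striatum marker score as a covariate 1.63 (adjusted p = 0.0546). For CgA-KO/PS19 against WT the values were -1.03 (adjusted p = 0.129) over replicates 1 to 3 and -2.50 (adjusted p = 0.0154) over the later ones. With near-identical libraries averaged it was -1.82 (adjusted p = 0.0319), and the call was lost with only these genotypes in the fit (adjusted p = 0.0519). Tac2, the precursor gene of neurokinin B, had a WT level of 5.61 ± 1.12 CPM (SD, n = 5), a PS19 level of 5.90 ± 0.605 CPM (SD, n = 6) and a CgA-KO/PS19 level of 5.18 ± 2.43 CPM (SD, n = 6). In CgA-KO/PS19 it was lowest in replicates 1 and 3, at 2.44 and 2.36 CPM, the reverse of Tac1. None of its 3 comparisons was called by edgeR (adjusted p = 0.909, 0.664 and 0.867). Tac4, the precursor gene of hemokinin, had at most 8 counts in any library.

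Trhr (ENSMUSG00000038760), on chromosome 15 from 44196135 to 44235912, shared its highest library with Tacr3 but not its pattern in CgA-KO/PS19. In WT replicates 1 to 5 it was 5.55, 15.9, 5.50, 20.6 and 28.7 CPM. PS19 libraries ran from 1.57 to 3.37 CPM with a median of 1.83 CPM, and CgA-KO/PS19 libraries from 3.85 to 5.77 CPM with a median of 4.65 CPM. Thus the PS19 libraries lay below all others, and CgA-KO/PS19 was as even as PS19 was, with replicates 1 and 3, at 5.23 and 4.22 CPM, inside the range of the rest. The log2 fold change from PS19 was 2.88 in WT (SE 0.36) and 1.19 in CgA-KO/PS19 (SE 0.34), and that of CgA-KO/PS19 from WT was -1.69 (SE 0.35). These values were 2.86, 1.18 and -1.67 with the striatum marker score as a covariate. Without WT replicate 5, the library highest in choroid plexus markers, WT differed from PS19 by 2.50. Summed hippocampus markers were 71.1 and 80.2 CPM in WT replicates 2 and 5 and 23.3 to 35.3 CPM in the other WT libraries. In PS19 they were 30.7 to 37.0 CPM. Thalamus and habenula markers summed to 41.2 to 89.3 CPM in WT, highest in replicates 4 and 5, and 36.0 to 53.3 CPM in PS19. Hypothalamus markers summed to 1.32 to 4.15 CPM in WT and 0.347 to 0.633 CPM in PS19. Their part in the levels of Trhr, Trh and Tacr3 was not tested.

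Trh, the precursor gene of thyrotropin-releasing hormone, was high in 4 WT libraries. Its level was 1.24, 14.3, 6.39, 9.01 and 20.1 CPM in WT replicates 1 to 5, 0.255 to 1.07 CPM in PS19 with a median of 0.429 CPM, and 0.289 to 1.42 CPM in CgA-KO/PS19 with a median of 0.670 CPM. WT replicate 1 was above every PS19 library and within the range of CgA-KO/PS19. Trh was called higher in WT than in PS19 by a log2 fold change of 4.27 (SE 0.58, adjusted p = 4.52e-04, edgeR), and lower in CgA-KO/PS19 than in WT by a log2 fold change of -3.62 (SE 0.57, adjusted p = 0.00178). CgA-KO/PS19 and PS19 differed by 0.66 (SE 0.53, adjusted p = 0.442). Over replicates 1 to 3 alone WT against PS19 was 3.23 (adjusted p = 0.0850) and over the later ones 5.65 (adjusted p = 0.00132). The later set held 2 WT libraries and the near-identical PS19 replicates 4 to 6, so that its p-value rests on little independent spread. With near-identical libraries averaged WT against PS19 was 3.97 (adjusted p = 0.0110). The WT libraries had the same order for Trh and Tacr3, with replicate 1 lowest and replicate 5 highest. Its promoter and that of Tacr3 are therefore printed in the same way, Tacr3 from chr3:134828757-134829006 on the plus strand and Trh from chr6:92244651-92244900 on the minus strand.
Tacr3 upstream: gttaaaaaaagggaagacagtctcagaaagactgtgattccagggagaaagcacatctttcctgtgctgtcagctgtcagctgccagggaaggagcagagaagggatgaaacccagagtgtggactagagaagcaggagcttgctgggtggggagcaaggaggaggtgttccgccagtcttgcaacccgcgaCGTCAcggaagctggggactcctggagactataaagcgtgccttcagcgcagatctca
Trh upstream: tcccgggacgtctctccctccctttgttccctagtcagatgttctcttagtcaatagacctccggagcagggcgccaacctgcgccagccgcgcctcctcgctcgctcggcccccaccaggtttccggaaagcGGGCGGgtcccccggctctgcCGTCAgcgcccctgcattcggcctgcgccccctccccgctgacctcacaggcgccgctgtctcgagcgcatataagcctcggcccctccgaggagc
Tacr3 held the core of the cAMP response element 58 bases and a TATAAA box 29 bases before its start, and Trh held the core at 96 bases and a GC box at 117 bases. The letters TATAAA were found in 13.6% of promoters.

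Among the somatostatin receptor genes no common direction was seen. Sstr1 (ENSMUSG00000035431), on chromosome 12 from 58211772 to 58214444, was lowest in CgA-KO/PS19. It was 15.2, 17.2, 12.2, 7.64 and 15.8 CPM in WT replicates 1 to 5, 16.3 to 20.5 CPM in PS19 with a median of 18.1 CPM, and 6.62 to 15.2 CPM in CgA-KO/PS19 with a median of 8.05 CPM. All CgA-KO/PS19 libraries were below all PS19 libraries, with replicate 4 the highest of them. The log2 fold change of CgA-KO/PS19 from PS19 was -1.0 (SE 0.21, adjusted p = 0.00795, edgeR), where 4.22% of genes were called lower and 5.5% higher in CgA-KO/PS19, and where 3.79% of genes had non-overlapping lower and 2.84% non-overlapping higher levels. It was -0.83 without CgA-KO/PS19 replicates 1 and 3 (adjusted p = 0.0506), and -0.98 with the near-identical libraries averaged (adjusted p = 0.0717). Over replicates 1 to 3 it was -1.52 (adjusted p = 2.44e-04) and over replicates 4 to 6 -0.57 (adjusted p = 0.413). WT against PS19 gave -0.41 (SE 0.21, adjusted p = 0.297) and CgA-KO/PS19 against WT -0.60 (SE 0.21, adjusted p = 0.105), the latter called without WT replicate 4 (-0.74, adjusted p = 0.0281) or without CgA-KO/PS19 replicate 4 (-0.81, adjusted p = 0.0120). Sstr1 lies on the chromosome of Chga, 44.3 Mb from it, and the part of that position was not tested. Mitochondrial genes took 13.8% to 18.2% of counts in CgA-KO/PS19 replicates 1 to 3, where Sstr1 was 6.62 to 6.91 CPM, and 3.84% to 10.9% in replicates 4 to 6, where it was 9.18 to 15.2 CPM. Whether this share had a part in the level was not tested.

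Sstr3 (ENSMUSG00000044933), whose protein is known from neuronal primary cilia, changed less in size but more evenly. It lies on chromosome 15 from 78537008 to 78544685. Its level was 26.6, 29.5, 28.4, 35.2 and 27.0 CPM in WT replicates 1 to 5, 27.4 to 30.7 CPM in PS19 and 19.1 to 24.7 CPM in CgA-KO/PS19, with medians of 28.7 and 21.4 CPM. Hence CgA-KO/PS19 did not overlap either of the other genotypes, which overlapped each other throughout. Within CgA-KO/PS19, replicates 1 to 3 were at 19.1 to 20.5 CPM and replicates 4 to 6 at 22.3 to 24.7 CPM, a split also seen for Sstr1. CgA-KO/PS19 was called lower than PS19 (-0.42, SE 0.088, adjusted p = 0.00919) and lower than WT (-0.44, SE 0.093, adjusted p = 0.00973), the latter in a comparison where 1.54% of genes had non-overlapping lower and 2.06% non-overlapping higher levels. Both calls held with each library left out in turn, but that against WT was lost with only these genotypes in the fit (-0.44, adjusted p = 0.0803). With the near-identical libraries averaged, CgA-KO/PS19 against PS19 was -0.38 (adjusted p = 0.111). Over replicates 1 to 3 it was -0.51 (adjusted p = 0.00330) and over replicates 4 to 6 -0.35 (adjusted p = 0.298). For CgA-KO/PS19 against WT the corresponding values were -0.50 (adjusted p = 0.00525) and -0.40 (adjusted p = 0.212). WT and PS19 differed by 0.020 (SE 0.093, adjusted p = 0.938).

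Sstr2 and Sstr4 were called in none of the 3 comparisons by edgeR. Sstr2 (ENSMUSG00000047904), on chromosome 11 from 113619342 to 113626028, encodes the somatostatin receptor most abundant per length here in WT. It was 23.5, 24.8, 24.0, 15.9 and 23.8 CPM in WT replicates 1 to 5, 14.3 to 24.2 CPM in PS19 with a median of 15.1 CPM, and 17.2 to 32.4 CPM in CgA-KO/PS19 with a median of 23.3 CPM. PS19 replicate 1 alone, at 24.2 CPM, joined the level of the other genotypes. CgA-KO/PS19 differed from PS19 by 0.55 (SE 0.18, adjusted p = 0.0557), and was called without PS19 replicate 1 (0.69, adjusted p = 0.0209), without WT replicate 4 (adjusted p = 0.0363), without CgA-KO/PS19 replicate 1 (adjusted p = 0.0462) or replicate 3 (adjusted p = 0.0434), and by DESeq2 (adjusted p = 0.0162). WT differed from PS19 by 0.45 (SE 0.18, adjusted p = 0.164), which limma voom called (0.65, adjusted p = 0.00247), and CgA-KO/PS19 from WT by 0.097 (SE 0.18, adjusted p = 0.819). Within CgA-KO/PS19, replicates 1 to 3 were at 17.2 to 22.3 CPM and replicates 4 to 6 at 24.3 to 32.4 CPM. Sstr4 (ENSMUSG00000037014), on chromosome 2 from 148395344 to 148396767, had a mean of 8.67 ± 0.949 CPM for WT (SD, n = 5), 8.86 ± 1.88 CPM for PS19 (SD, n = 6) and 9.65 ± 2.63 CPM for CgA-KO/PS19 (SD, n = 6). Its log2 fold changes were -0.028 in WT and 0.12 in CgA-KO/PS19 against PS19 and 0.15 between CgA-KO/PS19 and WT, with 95% intervals of -0.40 to 0.34, -0.23 to 0.47 and -0.22 to 0.52. Differences within these intervals could not be resolved with this spread.

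Sstr5 (ENSMUSG00000050824), on chromosome 17 from 25489875 to 25497288, was near the limit of detection. In WT replicates 1 to 5 it was 0.550, 0.584, 0.694, 0.684 and 1.32 CPM, of which replicate 4 rested on 6 counts. PS19 libraries held 0 to 21 counts, or at most 0.137 CPM, and PS19 replicate 1 held none. CgA-KO/PS19 ran from 0 to 0.589 CPM, with replicates 1, 2 and 3 at 0.589, 0.259 and 0.374 CPM and replicates 4, 5 and 6 at 0.0978, 0.111 and 0 CPM. A count of 0 allows up to 3 fragments, or 9 counts, which is 0.164 CPM in PS19 replicate 1 and 0.260 CPM in CgA-KO/PS19 replicate 6 and covers counting error only. WT and PS19 did not overlap, and CgA-KO/PS19 spanned the gap between them. The fitted log2 fold change from PS19 was 3.89 in WT (SE 0.71) and 2.22 in CgA-KO/PS19 (SE 0.68), and that of CgA-KO/PS19 from WT was -1.67 (SE 0.66). With 1 library left out these ran from 3.58 (without WT replicate 5) to 4.49 (without PS19 replicate 5), from 1.78 (without CgA-KO/PS19 replicate 1) to 2.83 (without PS19 replicate 5), and from -2.11 (without CgA-KO/PS19 replicate 1) to -1.35 (without WT replicate 5). Against PS19 the value for CgA-KO/PS19 was 3.33 over replicates 1 to 3 and 0.28 over replicates 4 to 6, and with the striatum marker score as a covariate WT differed from PS19 by 1.77.

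**Figure D3:**
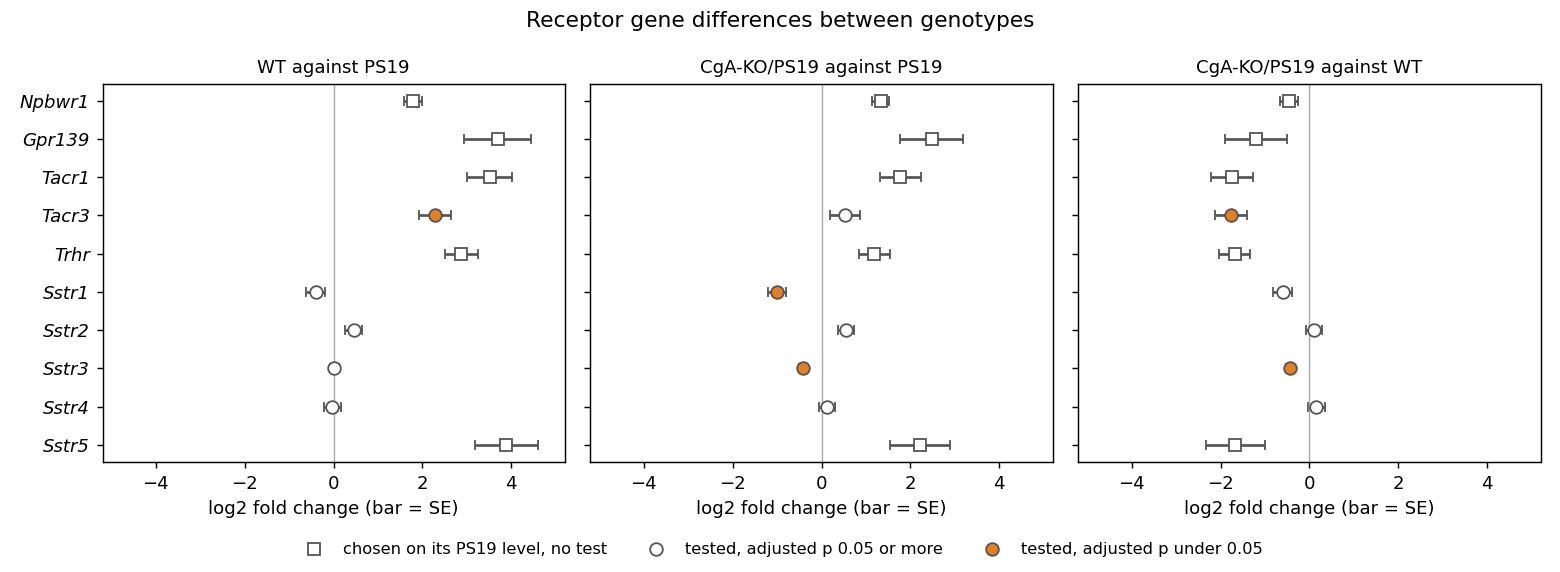
Log2 fold changes of the 10 receptor genes in the 3 comparisons, with bars of 1 SE, from the edgeR fit over 17 libraries. Squares are genes chosen on their PS19 level, which have no test, open circles are tested genes with an adjusted p of 0.05 or more, and filled circles those below it. Tacr3 (2.28) is filled for WT against PS19, Sstr1 (-1.0) and Sstr3 (-0.42) for CgA-KO/PS19 against PS19, and Tacr3 (-1.76) and Sstr3 (-0.44) for CgA-KO/PS19 against WT.

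Counted together, 6 of the 10 genes, the 5 chosen genes and Tacr3, had WT libraries that did not overlap PS19 and lay above it, where 4.39% of all genes did so and 5.13% lay below. For the 5 chosen genes this count follows from the choice. Over the 5 genes added by family the median log2 fold change was 0.020 for WT against PS19, 0.12 for CgA-KO/PS19 against PS19 and -0.44 for CgA-KO/PS19 against WT, beside medians over all genes of -0.0097, 0.026 and 0.0090.

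Sst and Cort encode the ligands of the somatostatin receptors, and in CgA-KO/PS19 they were called in opposite directions against WT while neither was called against PS19. Sst, the precursor gene of somatostatin, had a mean of 208 ± 38.9 CPM for WT (SD, n = 5), 162 ± 12.8 CPM for PS19 (SD, n = 6) and 139 ± 35.4 CPM for CgA-KO/PS19 (SD, n = 6), where replicates 1 and 3 were lowest at 107 and 99.6 CPM. It was called lower in CgA-KO/PS19 than in WT (-0.58, SE 0.16, adjusted p = 0.0341), not in CgA-KO/PS19 against PS19 (-0.22, SE 0.15, adjusted p = 0.347) nor in WT against PS19 (0.36, SE 0.16, adjusted p = 0.197). That call was lost without WT replicate 2, 4 or 5 (adjusted p = 0.0647, 0.0649 and 0.0890) and without CgA-KO/PS19 replicate 1, 2 or 3 (adjusted p = 0.0720, 0.0728 and 0.0666), without CgA-KO/PS19 replicates 1 and 3 together (adjusted p = 0.112), with the near-identical libraries averaged (adjusted p = 0.115), over later replicates (adjusted p = 0.118) and with only these genotypes in the fit (adjusted p = 0.136). Cort, the precursor gene of cortistatin, averaged 2.92 ± 0.770 CPM for WT (SD, n = 5), 3.55 ± 0.440 CPM for PS19 (SD, n = 6) and 4.83 ± 0.943 CPM for CgA-KO/PS19 (SD, n = 6). CgA-KO/PS19 was called higher than WT (0.73, SE 0.18, adjusted p = 0.0222) and not than PS19 (0.44, SE 0.17, adjusted p = 0.0950), and WT against PS19 gave -0.29 (SE 0.18, adjusted p = 0.380). Leaving out WT replicate 2, 3 or 5 (adjusted p = 0.0605, 0.0523 and 0.0696) or CgA-KO/PS19 replicate 2 (adjusted p = 0.0523) ended that call, as did replicates 1 to 3 alone (adjusted p = 0.214), only these genotypes (adjusted p = 0.0972), the striatum marker score (adjusted p = 0.0897) and no filter on low counts (adjusted p = 0.0508). Both genes are made by interneurons. Of 9 interneuron markers 2 were called lower in CgA-KO/PS19 than in WT, beside 2.89% of all genes. Against PS19 3 were called lower in CgA-KO/PS19, beside 4.22% of all genes. The markers summed to 674 to 1210 CPM in CgA-KO/PS19, 1204 to 1496 CPM in WT and 1298 to 1495 CPM in PS19. The part of interneurons in the Sst and Cort levels was not tested.

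**Figure D4:**
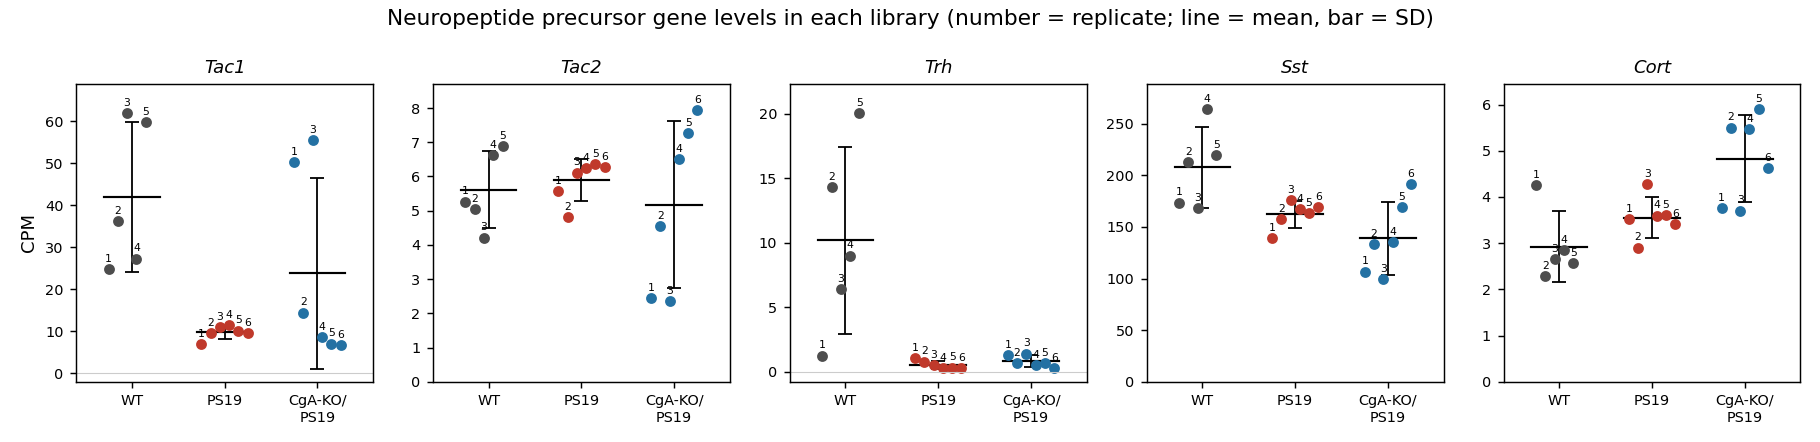
Level of the 5 precursor genes that passed the filter on low counts, in CPM on linear axes, in each library of the 3 genotypes. Points are libraries with their replicate number, lines are means and bars are SD. Tac1 is high in CgA-KO/PS19 replicates 1 and 3 (50.2 and 55.4 CPM), Trh is above 6 CPM in 4 WT libraries only, and Sst is lowest in CgA-KO/PS19 replicates 1 and 3.

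In all, 2 of the 5 precursor genes tested were called higher in WT than in PS19 (Tac1 and Trh), beside 3.95% of all genes, and 0 in CgA-KO/PS19 against PS19 by edgeR, where 2 had an unadjusted p under 0.05 and DESeq2 called 1 (Cort) and limma voom 0. Enzymes that cut released peptides were tested as a list of 8, of which 2 were called higher in WT than in PS19, beside 3.95% of all genes, and 1 lower in CgA-KO/PS19 than in PS19, beside 4.22%. Mme, the gene of neprilysin, which degrades tachykinins and somatostatin among others, was 29.3 CPM in WT, 11.9 CPM in PS19 and 13.4 CPM in CgA-KO/PS19 on average and was called higher in WT than in PS19 (1.3, SE 0.35, adjusted p = 0.0324). Ece2, an endothelin-converting enzyme of secretory vesicles, was called higher in WT as well, at 18.7 CPM against 11.5 CPM (0.71, SE 0.20, adjusted p = 0.0441), and Thop1, a cytosolic oligopeptidase, was called lower in CgA-KO/PS19 than in PS19 (-0.47, SE 0.14, adjusted p = 0.0461). Trhde, the enzyme that inactivates thyrotropin-releasing hormone, was called in none of the comparisons. In CgA-KO/PS19 against WT edgeR called 0 of the 8, with 4 lower at an unadjusted p under 0.05, while DESeq2 called 2 and limma voom 3 lower. Of 14 genes of coupling proteins (GIRK channels, arrestins, receptor kinases and phospholipases C), edgeR called Kcnj5 alone, higher than in PS19 in WT (2.26, SE 0.54, adjusted p = 0.0173) and in CgA-KO/PS19 (1.92, SE 0.51, adjusted p = 0.0271). Its level was low, with means of 1.16 CPM in WT, 0.262 CPM in PS19 and 0.917 CPM in CgA-KO/PS19. Its libraries overlapped in both comparisons. These comparisons share the PS19 libraries. DESeq2 also called 1 coupling gene lower in WT than in PS19, and limma voom called 2 lower there and 4 lower in CgA-KO/PS19 than in PS19. The share of these 14 genes called higher by edgeR, 7.14% in both, stands beside 3.95% and 5.5% of all genes.

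The 75 other neuropeptide receptor genes on a hand-written list give the setting. Of the 55 that were tested, WT was called higher than PS19 for 15 (27.3%) and lower for 1 (1.82%), where 3.95% and 1.95% of all genes were, with a median log2 fold change of 0.48. In CgA-KO/PS19 5 (9.09%) were called higher and 2 (3.64%) lower than in PS19, with a median of 0.15, beside 5.5% and 4.22% of all genes. Against WT edgeR called 14 (25.5%) lower in CgA-KO/PS19, DESeq2 14 of 73 and limma voom 11 of 55, and each called 0 higher, with 2 higher at an unadjusted p under 0.05 by edgeR, beside 2.89% and 3.56% of all genes. These counts rest on the choice of libraries. Over replicates 1 to 3 alone edgeR called 0 of 52 in WT against PS19, with 15 higher and 4 lower at an unadjusted p under 0.05, and 3 higher and 7 lower in CgA-KO/PS19 against WT, and without CgA-KO/PS19 replicates 1 and 3 the calls against PS19 were 2 higher and 0 lower.

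By gene, some receptors were called in both comparisons that hold WT, and others in both that hold PS19. Oxtr, the oxytocin receptor gene, was 10.9 to 23.0 CPM in WT, 5.23 to 7.29 CPM in PS19 and 5.80 to 8.60 CPM in CgA-KO/PS19, so that WT stood above both other genotypes. It was called higher in WT than in PS19 (1.43, SE 0.17, adjusted p = 2.50e-04) and lower in CgA-KO/PS19 than in WT (-1.12, SE 0.17, adjusted p = 0.00160). Glp1r, the receptor gene of glucagon-like peptide 1, was 1.24 to 7.67 CPM in WT against 0.417 to 0.656 CPM in PS19 and 0.279 to 0.808 CPM in CgA-KO/PS19, with log2 fold changes of 3.12 in WT from PS19 and -2.86 in CgA-KO/PS19 from WT (adjusted p = 2.50e-04 and 5.54e-04). The same directions were called for Npy2r, a receptor of neuropeptide Y (2.13 and -1.69), Prokr2, a prokineticin receptor (1.89 and -1.71), Nmbr, the neuromedin B receptor (2.14 and -1.35), Galr1, a galanin receptor (3.91 and -2.34), and Gpr83 (0.99 and -0.84), among 11 genes in all. Both comparisons hold the WT libraries, and the share of all genes called in both was not counted. Pth2r, a parathyroid hormone receptor, was called only lower in CgA-KO/PS19 than in WT among the 3 comparisons (-1.04, adjusted p = 0.00768).

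Higher than in PS19 in both WT and CgA-KO/PS19 were 3 genes, with the PS19 libraries shared between the comparisons. The share of all genes called higher in both was not counted. With near-identical libraries averaged, edgeR called 0 of the 55 other receptor genes in CgA-KO/PS19 against PS19. Oprm1, the mu opioid receptor gene, was 1.81 to 3.88 CPM in WT, 0.999 to 1.57 CPM in PS19 and 1.93 to 2.96 CPM in CgA-KO/PS19. PS19 thus lay below all other libraries. Of all genes, 4.39% had WT libraries and 2.84% had CgA-KO/PS19 libraries that lay above PS19 without overlap. Npbwr1 and Trhr, which also lay lowest in PS19, were chosen as low there. The log2 fold changes of Oprm1 from PS19 were 1.13 in WT (SE 0.20, adjusted p = 0.00240) and 0.89 in CgA-KO/PS19 (SE 0.19, adjusted p = 0.00937). Npsr1, the neuropeptide S receptor gene, gave 0.97 and 0.73 (adjusted p = 0.00667 and 0.0231). Oprk1, the kappa opioid receptor gene, gave 2.46 and 2.13 (adjusted p = 0.0193 and 0.0280) and varied more, from 2.80 to 22.9 CPM in CgA-KO/PS19. Rxfp1, a relaxin receptor, exceeded its PS19 level in CgA-KO/PS19 (0.95, adjusted p = 0.00873). Rxfp2, an insulin-like peptide receptor, was the gene called lower in WT than in PS19 (-1.70, adjusted p = 0.0277) and was lower in CgA-KO/PS19 as well (-1.87, adjusted p = 0.00992).

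**Figure D5:**
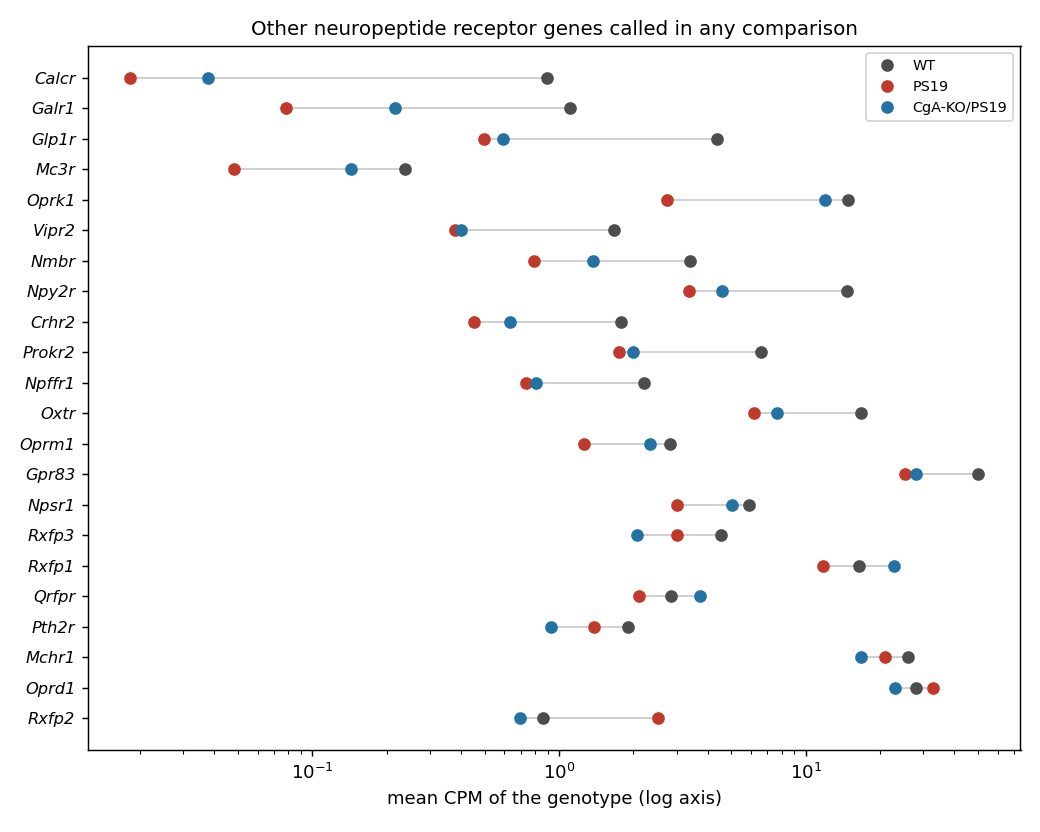
Mean level of the 22 other neuropeptide receptor genes called in any comparison, in CPM on a log axis, with 1 point per genotype and genes ordered by their log2 fold change between WT and PS19. For Glp1r, Oxtr, Npy2r and Prokr2 the CgA-KO/PS19 mean lies near the PS19 mean, and for Oprm1, Oprk1 and Npsr1 it lies nearer to the WT mean.

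Finally, the genes whose levels were most like those of each receptor gene over the 17 libraries were listed among 15474 genes with a mean of at least 1 CPM, as Pearson's r of log2(CPM + 1), with the r of deviations from the genotype means beside it. These are descriptions over libraries that share genotype, depth and tissue markers. For Gpr139 they were Clspn, Foxo1 and Bcl11b (r = 0.983, 0.978 and 0.976, and 0.966, 0.953 and 0.969 within genotypes), and for Tacr1 Dchs2, Bcl11b and Slc10a4 (0.988, 0.987 and 0.982, and 0.954, 0.969 and 0.962 within genotypes). Bcl11b, a transcription factor gene of striatal projection neurons and deep cortical neurons, was on both lists, though not on that of the 16 striatum markers. Tacr3 was most like Trh (0.954, and 0.887 within genotypes), Hap1 (0.952 and 0.867) and Tnfaip8l3 (0.952 and 0.891), and Trhr most like Tmem255a, Nr2f2 and Acvr2a (0.979, 0.968 and 0.964, and 0.925, 0.919 and 0.887 within genotypes). For Npbwr1 they were Glra2, Ankfn1 and Mmab, whose r of 0.920, 0.918 and 0.906 fell to 0.561, 0.531 and 0.384 within genotypes, so that the likeness lay mostly between genotypes.

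In the somatostatin receptor family, Sstr5 was most like Clic6, which is also a choroid plexus marker, Trpc7 and Slc35d3 (0.973, 0.964 and 0.962, and 0.909, 0.867 and 0.879 within genotypes). Sstr1 was most like Glb1, Endod1 and Pelo (0.975, 0.974 and 0.971, and 0.938, 0.949 and 0.963 within genotypes). Sstr2 was most like Pdlim1, Tenm3 and Tox4 (0.879, 0.872 and 0.837, and 0.892, 0.821 and 0.769 within genotypes). For Sstr3 they were Btf3l4b, Rspo3 and Diras1 (0.901, 0.898 and 0.893, and 0.639, 0.778 and 0.903 within genotypes). Sstr4 was most like Cars, Psmc2 and Fgf10 (0.893, 0.882 and 0.875, and 0.912, 0.898 and 0.871 within genotypes). Apart from Tacr3 and Trh, no receptor gene had any of the 5 precursor genes that reached 1 CPM among its 3 nearest, and Trh encodes the ligand of Trhr, not of Tacr3.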

How the data were processed

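RNA of the prefrontal cortex of 17 mice was sequenced, and the authors deposited 1 table of read counts per gene, not normalised. Per the submitters' processing notes the tools were FastQC, Trimmomatic 0.39, STAR 2.7.10b, StringTie 1.3.6 and DESeq2 1.42.0 on mm10. Per the study's methods the counts were derived from StringTie coverage with prepDE, and in the deposited values about 3 counts stood for 1 fragment. The annotation release and the strand setting were not given in the sources used here.

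Counts of 23062 genes that passed filterByExpr were fitted with edgeR 4.0.16 (R 4.3.3, TMM, quasi-likelihood test) over all 17 libraries by genotype, with Benjamini-Hochberg adjustment over these genes and calls at an adjusted p under 0.05. Adjusted p-values are from this test unless another tool is named. CPM are TMM-normalised, and log2 fold changes are fitted values. DESeq2 1.42.0, limma 3.58.1 (voom with quality weights), other filters, covariates and sets of libraries served as alternatives. Python 3.11.15 with pandas 2.3.3 and numpy 2.4.6 served for tables, scipy 1.17.1 for statistics and matplotlib 3.10.9 for plots. The fits were tested on simulated data. Gene positions and exon lengths are from GENCODE annotation on GRCm38. Sequences are from RefSeq.

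The members, gene lists and tests were chosen with earlier results of these data known. A test of the 5 chosen genes in CgA-KO/PS19 against WT was planned and is not given, since the WT libraries behind the choice enter it. Named genes were all members, the precursor, peptidase and coupling genes called, the 12 other receptor genes with the smallest p, and the 3 genes most like each member. Oprk1 was named in addition after its values were seen. The striatum score is the mean over the striatum markers of their centred log2 levels.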

Additional observations from a re-analysis of the deposited data

Results flagged for a closer look

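In 5 of 45 groups of libraries, over 15 genes, the highest or lowest library stood apart from the others by Dixon's criterion, which chance alone flags in about 1 group of 20. Sstr1 was 15.2 CPM in CgA-KO/PS19 replicate 4 and 6.62 to 9.62 CPM in the other 5 libraries of that genotype. Sstr2 was 15.9 CPM in WT replicate 4, the shallowest library, against 23.5 to 24.8 CPM in the other WT libraries. In PS19 replicate 1 Sstr2 was 24.2 CPM, against 14.3 to 15.8 CPM in the rest. Sstr5 was 1.32 CPM in WT replicate 5, which was also highest in choroid plexus markers, against 0.550 to 0.694 CPM in the other WT libraries. Cort was 4.25 CPM in WT replicate 1 and 2.29 to 2.85 CPM in the others.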

How the results depend on the processing

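Counts of other receptor genes called depended on the libraries and the tool. For WT against PS19 edgeR called 16, limma voom 28, the fit over replicates 1 to 3 called 0 and that with near-identical libraries averaged 8, with 12 to 18 when 1 library was left out. For CgA-KO/PS19 against PS19 the count was 7, and 13 by DESeq2 and by limma voom, 11 with only these genotypes, 17 over replicates 1 to 3, 3 over later replicates, 0 with near-identical libraries averaged (5 higher and 4 lower at an unadjusted p under 0.05) and 2 without CgA-KO/PS19 replicates 1 and 3, with 4 to 13 when 1 library was left out (13 without WT replicate 4). For CgA-KO/PS19 against WT it was 14, and 9 with at least 10 counts in every library, 5 with only these genotypes, 8 with the replicate block, 5 over later replicates and 7 with near-identical libraries averaged, with 7 to 15 when 1 library was left out (7 without WT replicate 5).

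Log2 fold changes that turned their sign were, by limma voom, 0.12 for Sstr4 and -0.037 for Sstr3 in WT against PS19 and -0.083 for Sstr2 in CgA-KO/PS19 against WT, and with no filter -0.0035 for Sstr3 in WT against PS19. With near-identical libraries averaged Tac2 was 0.039 against WT and 0.00997 against PS19 in CgA-KO/PS19. Over replicates 1 to 3 Sstr3 was -0.010 in WT against PS19, Sstr4 -0.46 against PS19 and -0.23 against WT and Sstr2 -0.32 against WT in CgA-KO/PS19. Over later replicates Tac2 was 0.078 in WT against PS19 and 0.18 and 0.10 in CgA-KO/PS19 against PS19 and WT, Sstr4 0.17 in WT and Tac1 -0.49 in CgA-KO/PS19 against PS19. With the striatum score as a covariate, WT against PS19 gave 1.15 for Tac2, -0.39 for Tac1, 0.62 for Sstr4, 0.10 for Sstr1 and 0.18 for Cort. CgA-KO/PS19 against PS19 gave 0.18 for Tac2, -0.34 for Tac1 and -0.056 for Trh, and against WT 0.0036 for Gpr139, 0.055 for Tac1, -0.27 for Sstr4 and -0.20 for Sstr2. Without CgA-KO/PS19 replicates 1 and 3, Tac1 was -0.090 and Tac2 0.14 against PS19, and Tac2 0.24 against WT. With 1 library left out, Sstr3 ran from -0.052 to 0.051, Sstr4 from -0.088 to 0.060 and Tac2 from -0.18 to 0.010 in WT against PS19, and Sstr2 from -0.0064 to 0.18 and Tac2 from -0.27 to 0.046 in CgA-KO/PS19 against WT. The cause was not tested.

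Same-numbered libraries did not deviate together: r exceeded 0.1 in 2 of 16 pairs (-0.23 to 0.44). The replicate block changed the counts of other receptor genes to 12, 5 and 8 and ended the calls of Tacr3 (adjusted p = 0.0600) and Cort (0.0789) in CgA-KO/PS19 against WT and of Tac1 (0.0749) in WT against PS19. Libraries that share most of their values count as separate mice above, and WT replicate 4 limits the precision of genes of low level.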
